A study of Sus scrofa with 6 samples.

Results

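The 9 genes studied belong to the complement system and were chosen by exact match of their symbols to the gene names in the deposited matrices: C1qa (ENSMUSG00000036887), C1qb (ENSMUSG00000036905), C1qc (ENSMUSG00000036896), C1s1 (ENSMUSG00000038521), C4b (ENSMUSG00000073418), C3 (ENSMUSG00000024164), Cfb (ENSMUSG00000090231), Serping1 (ENSMUSG00000023224) and Cd55 (ENSMUSG00000026399). All 9 of 9 were found, among 32285 gene features. Over the barcodes that passed the filters given below, the libraries held 138450 UMIs (unique molecular identifiers, counts of captured RNA molecules) of C1qa, 101545 of C1qb, 67984 of C1qc, 25747 of C1s1, 27841 of C4b, 155779 of C3, 56042 of Cfb, 96774 of Serping1 and 7102 of Cd55.

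The series held 6 droplet single-cell RNA libraries, 1 per label, of unsorted cells labelled as skin of the red duroc pig. In 4 of them the skin was labelled as treated with a transdermal patch of 1 mg DFO (deferoxamine, an iron chelator): pretreatment, for 2 weeks before radiotherapy; continuous, over 18 weeks in total; chronic, 4 weeks after recovery from radiation; and acute, over 12 weeks of recovery. The other 2 were irradiated skin and normal skin with no treatment. All 32285 gene features were mouse Ensembl identifiers, the title of the series concerns post-operative adhesions and a therapeutic against JUN, and 4 hashtag antibodies against mouse were counted beside the genes in chronic, acute, irradiated and normal, so libraries are called by their labels only and no difference is assigned to radiation or to DFO. The mouse genome build was not given, so no coordinates are stated.

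Complement is a cascade of plasma and tissue proteins that marks microbes, debris and dying cells for clearance and recruits leukocytes. In its classical pathway the C1q molecule, assembled from the chains A, B and C, binds a target and activates the proteases C1r and C1s, which cleave C4 and C2 to form an enzyme that cleaves C3; in the alternative pathway factor B supplies the protease that cleaves C3 and so amplifies deposition. C1 inhibitor and surface proteins such as CD55 restrain these steps. Although the liver makes most plasma complement, macrophages are a main source of C1q and fibroblasts of several other components in tissues.

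With 1 library per label there is no replicate, and no test between labels was possible. Ratios carry 95% exact intervals for Poisson counts, which cover counting error only. The libraries held 1811 to 25052 barcodes and 18611144 to 54966435 gene UMIs; 83559 of 88337 barcodes passed the filters, with 1499 in pretreatment, 8916 in continuous, 9180 in chronic, 24132 in acute, 22123 in irradiated and 17709 in normal. Depth moved with the labels, with a median of 7040.0 UMIs per barcode in pretreatment, 3023 in continuous, 2610.0 in chronic, 1339 in acute, 1572 in irradiated and 1356 in normal. Its part in the ratios was examined by thinning cells to 1000 UMIs, with classes and subsets set at full depth. Thinning also left out cells under 1000 UMIs, so it does not isolate depth. Of the macrophage or monocyte-like cells, it left out 1301 of 8033 in acute and 3 of 375 in pretreatment. Of the kept cells, 1455 carried 1 of the 811 barcode strings found in more than 1 library, and leaving them out kept every one of the 33 member ratios past 1.5-fold. Cells were assigned to classes by markers, 11.9% were left out as mixed, and 6.15% lay near the gate. Keratinocyte markers were present in all 6 libraries, with 4999 to 14294 UMIs of Krt14 each.

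A level is given as CPM, the gene's UMIs per 1000000 UMIs summed over all cells of a class in a library, and a class was used where it held at least 50 cells. Fibroblast-like cells numbered 535 in pretreatment, 612 in continuous, 376 in chronic, 1998 in acute, 1647 in irradiated and 2182 in normal. Macrophage or monocyte-like cells numbered 375 in pretreatment, 2258 in continuous, 3143 in chronic, 8033 in acute, 6005 in irradiated and 3602 in normal. The plot of levels by class shows that the genes fell into 2 arrangements. The 3 C1q chains were highest in macrophage or monocyte-like cells in all 6 libraries. The other 6 genes were highest in fibroblast-like cells in every library, except C1s1 in acute, where pericyte or smooth muscle-like cells stood higher.

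**Figure D1:**
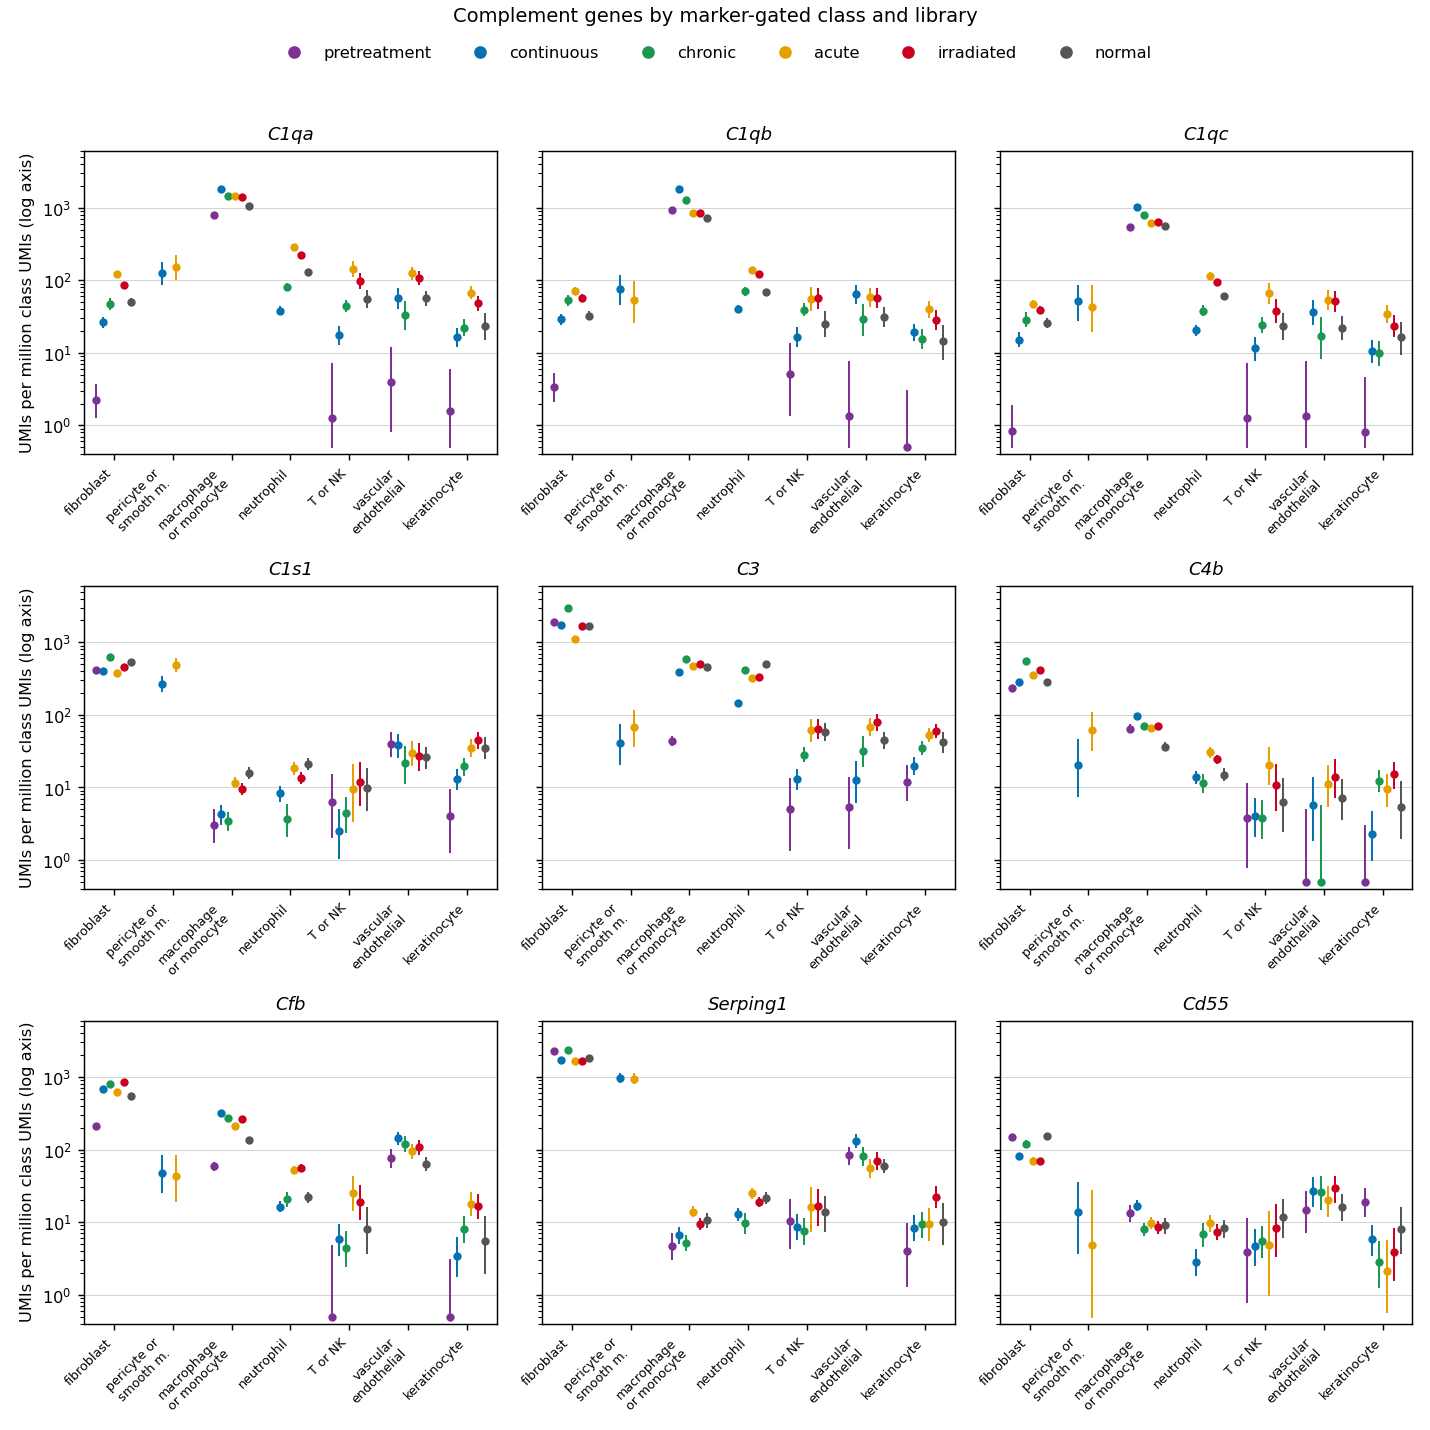
Level of each of the 9 complement genes, in CPM on a log axis, in 7 marker-gated classes of the 6 libraries; bars are 95% exact counting intervals, values below 0.5 are drawn at 0.5, and classes with under 50 cells are not drawn. C1qa, C1qb and C1qc stand highest in macrophage or monocyte-like cells, while C3, C4b, Cfb, Serping1 and Cd55 stand highest in fibroblast-like cells of all 6 libraries.

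The recognition molecule came first. C1qa, which encodes the A chain, stood in macrophage or monocyte-like cells at 802 CPM in pretreatment, 1833 in continuous, 1469 in chronic, 1465 in acute, 1393 in irradiated and 1065 in normal. C1qb, for the B chain, stood at 929 CPM in pretreatment, 1822 in continuous, 1265 in chronic, 834 in acute, 841 in irradiated and 719 in normal. C1qc, for the C chain, stood at 546 CPM in pretreatment, 1031 in continuous, 788 in chronic, 617 in acute, 633 in irradiated and 555 in normal. Continuous was the highest library for all 3 chains, pretreatment the lowest for C1qa and C1qc, and normal the lowest for C1qb.

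The chains therefore did not move in step between libraries. The number of C1qa UMIs per C1qb UMI in macrophage or monocyte-like cells was 0.864 in pretreatment, 1.01 in continuous, 1.16 in chronic, 1.76 in acute, 1.66 in irradiated and 1.48 in normal. C1qa made up 35.2% of all C1q UMIs in pretreatment, 39.1% in continuous, 41.7% in chronic, 50.2% in acute, 48.6% in irradiated and 45.5% in normal, and C1qb made up 40.8%, 38.9%, 35.9%, 28.6%, 29.3% and 30.7% of them in the same order. The share of C1qc kept to a narrower range, from 21.2% in acute to 24.0% in pretreatment. The same split between libraries was seen outside the class, where the source of the C1q UMIs was not tested. RNA from macrophage or monocyte-like cells would carry the same ratio, so this does not count as a second observation. In neutrophil-like cells there were 0.955 C1qa UMIs per C1qb UMI in continuous, 1.14 in chronic, 2.07 in acute, 1.83 in irradiated and 1.91 in normal. In fibroblast-like cells there were 0.903 in continuous, 0.90 in chronic, 1.69 in acute, 1.49 in irradiated and 1.54 in normal. The higher ratios belonged to acute, irradiated and normal, which were also the 3 libraries of lowest depth, and after thinning to 1000 UMIs the macrophage ratios were 0.963 in pretreatment, 1.01 in continuous, 1.18 in chronic, 1.81 in acute, 1.69 in irradiated and 1.57 in normal.

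**Figure D2:**
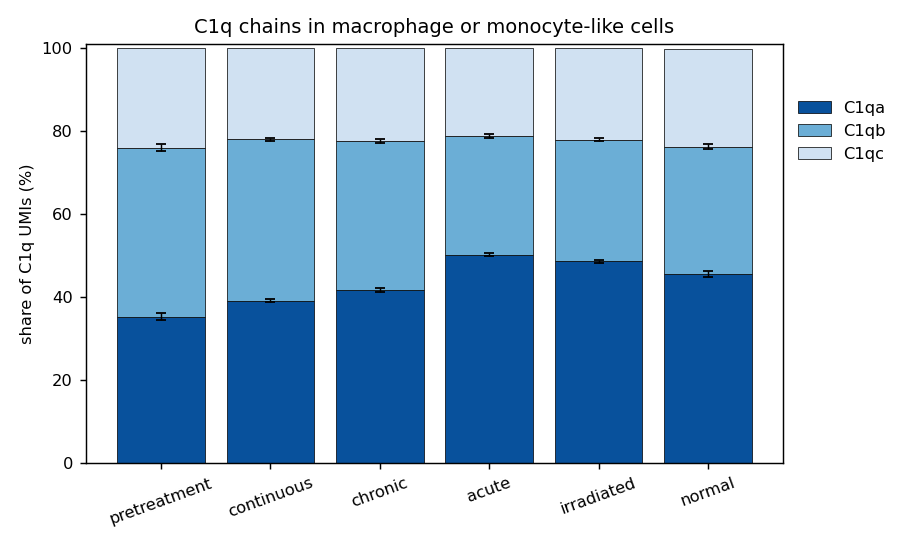
Share of C1q UMIs (%) that came from C1qa, C1qb and C1qc in macrophage or monocyte-like cells of each library, with the shares rounded before stacking; the bars at the upper edge of the C1qa and C1qb blocks are 95% exact counting intervals of those shares. C1qa takes 35.2% in pretreatment and 50.2% in acute, while C1qb takes 40.8% in pretreatment and 28.6% in acute.

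C1q RNA was spread unevenly within the class. Cells were split by resident macrophage markers (at least 2 of Folr2, Lyve1, Cd163 and Cd209f) and monocyte markers (at least 2 of Ly6c2, Chil3 and Plac8). Cells with resident markers numbered 62 in pretreatment, 153 in continuous, 64 in chronic, 69 in acute, 77 in irradiated and 50 in normal, which was 16.5% of the class in pretreatment and 0.859% in acute; the rule needs UMIs of 2 markers, so these shares depend on depth, which was highest in pretreatment and lowest in acute. They held a summed level of the 3 chains of 8677 CPM in pretreatment, 11275 in continuous, 9215 in chronic, 7829 in acute, 7868 in irradiated and 7279.5 in normal. Cells with neither marker set held 1071 CPM in pretreatment, 7159 in continuous, 4478 in chronic, 3649 in acute, 3764 in irradiated and 2887 in normal, and cells with monocyte markers 2381 in continuous, 2285 in chronic, 2112 in acute, 1894 in irradiated and 1335 in normal. Cells with resident markers were the highest in all 6 libraries, and in the pretreatment library C1qa was 9.0-fold, C1qb 6.56-fold and C1qc 9.97-fold higher in them than in cells with neither set.

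Cells with neither set spread the most between libraries. The summed C1q level of cells with resident markers was 1.1-fold that of irradiated in pretreatment (interval 1.05 to 1.16), whereas that of cells with neither set was 0.284-fold (0.275 to 0.294). After thinning to 1000 UMIs, at least 1 C1q UMI was found in 43.3% of macrophage or monocyte-like cells in pretreatment, 56.6% in continuous, 63.5% in chronic, 66.0% in acute, 64.5% in irradiated and 52.6% in normal. Unthinned, the shares were 61.6%, 67.1%, 75.0%, 73.1%, 74.5% and 61.4% in the same order, at a median depth of 14055 UMIs in pretreatment and 1731 to 4969 in the other 5. Continuous thus had the highest level but not the largest share of positive cells, thinned or not.

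C1q UMIs were also found in classes that should lack the gene. In T or NK-like cells a C1q UMI was found after thinning in 2.04% of cells in pretreatment, 5.70% in continuous, 9.76% in chronic, 21.8% in acute, 16.4% in irradiated and 10.4% in normal. Unthinned, these shares were 5.10%, 15.4%, 21.5%, 28.1%, 26.7% and 16.6% in the same order, at median depths between 1068 and 5976 UMIs. The summed C1q level of T or NK-like cells was 0.336% of the macrophage or monocyte-like level in pretreatment, 0.972% in continuous, 3.06% in chronic, 9.15% in acute, 6.72% in irradiated and 4.44% in normal. The T or NK-like level, used below as the background reference, was lowest in pretreatment and highest in acute.

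Fibroblast-like cells were close to it, with a summed C1q level of 6.48 CPM in pretreatment, 70.4 in continuous, 129 in chronic, 239 in acute, 182 in irradiated and 109 in normal, against 7.65, 45.6, 108, 267, 193 and 104 CPM in T or NK-like cells of the same libraries. Outside continuous their C1q values were not separated from this reference and are not read as expression. In continuous the intervals of the 2 classes (64.1 to 77.3 and 38.5 to 53.5 CPM) did not overlap and no reading is made. Keratinocyte-like cells held 2.40, 46.4, 47.8, 142, 100.3 and 54.4 CPM, from pretreatment to normal in the same order. The T or NK-like level is therefore a reference and not a floor. Neutrophil-like cells stood above the T or NK-like level, at 98.6 CPM in continuous, 189.7 in chronic, 544 in acute, 441 in irradiated and 258 in normal. The source of the C1q UMIs in these classes was not tested. The share of all kept C1q UMIs held by macrophage or monocyte-like cells was 97.3% in pretreatment, 87.8% in continuous and 87.5% in chronic, but 68.5% in acute, 65.6% in irradiated and 66.5% in normal.

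C1s1 encodes the protease C1s, which C1q activates through C1r and which cleaves C4 and C2. It stood in fibroblast-like cells at 419.6 CPM in pretreatment, 407 in continuous, 623 in chronic, 379 in acute, 456 in irradiated and 535 in normal. Chronic was the highest and acute the lowest, and no ratio to the compared library reached 1.5-fold. Pericyte or smooth muscle-like cells, which reached 50 cells in 2 libraries, held 269.7 CPM in continuous and 491 CPM in acute. Vascular endothelial-like cells held 21.4 to 40.1 CPM over the 6 libraries. Macrophage or monocyte-like cells held 3.08 to 16.0 CPM and T or NK-like cells 2.48 to 12.0 CPM, so that the 2 classes shared 1 range. Fibroblast-like cells, a minority of the kept cells, held 95.8% of C1s1 UMIs in pretreatment and 73.7% to 83.9% in the other 5 libraries.

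C4b encodes complement C4, the substrate of C1s. In fibroblast-like cells it stood at 237 CPM in pretreatment, 279.6 in continuous, 554 in chronic, 353 in acute, 418 in irradiated and 288 in normal. Chronic was highest, and pretreatment was 0.568-fold of irradiated (0.536 to 0.601). C4b stood in macrophage or monocyte-like cells at 64.7 CPM in pretreatment, 97.6 in continuous, 69.5 in chronic, 65.9 in acute, 71.3 in irradiated and 36.4 in normal. Normal was the lowest, and irradiated was 1.96-fold higher than normal (1.73 to 2.22). T or NK-like cells held 3.80 to 20.6 CPM.

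Macrophage C4b stood at a higher level in cells with resident markers. These held C4b at 365 CPM in pretreatment, 334 in continuous, 425 in chronic, 328 in acute, 435 in irradiated and 281 in normal, against 11.2, 92.0, 57.5, 65.6, 66.0 and 36.0 CPM in cells with neither marker set of the same libraries. The groups did not overlap: the lowest value with resident markers lay above the highest without. The ratio was 32.8 in pretreatment and 3.63 to 7.81 in the other 5 libraries; thinning to 1000 UMIs lowered it to 19.1 in pretreatment. A higher level did not mean most of the RNA. Cells with resident markers held 296, 331, 183, 62, 117 and 47 C4b UMIs, from pretreatment to normal in the order above. Cells with neither set held 45, 315, 412, 512, 466 and 182.

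C3 encodes the central component on which all routes of activation converge. In fibroblast-like cells it stood at 1881 CPM in pretreatment, 1727 in continuous, 2996 in chronic, 1125 in acute, 1673 in irradiated and 1676 in normal. Chronic was the highest, at 1.79-fold of irradiated (1.75 to 1.84), and acute the lowest, at 0.672-fold (0.656 to 0.689), just short of 1.5-fold lower. Irradiated and normal differed by less than counting error, with a ratio of 0.998 (0.977 to 1.02). The RNA was held by part of the class: after thinning, a C3 UMI was found in the class in 49.2% of cells of pretreatment, 42.0% in continuous, 57.0% in chronic, 45.8% in acute, 54.1% in irradiated and 52.9% in normal, and the tenth of cells with most C3 held 45.2% (chronic) to 58.4% (continuous) of its UMIs.

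Fibroblast-like cells were split by markers of the subcutaneous and adventitial type, Pi16 or Dpp4, and by the chemokine Cxcl5, each by at least 1 UMI, a rule that depends on depth. Cells with Pi16 or Dpp4 and no Cxcl5 UMI held C3 at 2036 CPM in pretreatment, 2223 in continuous, 4735 in chronic, 2366 in acute, 2909.7 in irradiated and 3446 in normal. Cells with Cxcl5 and neither Pi16 nor Dpp4 held 791 CPM in continuous, 1543 in chronic, 743 in acute, 1059 in irradiated and 1007 in normal; in pretreatment too few cells carried Cxcl5. The first subset was 2.75-fold (irradiated) to 3.42-fold (normal) higher than the second in those 5 libraries. The higher C3 of chronic was seen in each subset, at 1.63-fold of irradiated (1.56 to 1.70) with Pi16 or Dpp4, 1.46-fold (1.37 to 1.55) with Cxcl5, 1.94-fold (1.85 to 2.03) with both and 2.02-fold (1.87 to 2.19) with neither.

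Myeloid cells held C3 as well. Macrophage or monocyte-like cells stood at 44.0 CPM in pretreatment, 394 in continuous, 591 in chronic, 466 in acute, 501 in irradiated and 464 in normal. Neutrophil-like cells stood at 148 CPM in continuous, 422 in chronic, 322 in acute, 336 in irradiated and 498 in normal. T or NK-like cells held 5.10 to 64.6 CPM, below both myeloid classes in each library. After thinning, a C3 UMI was found in 4.57% of macrophage or monocyte-like cells in pretreatment, 25.3% in continuous, 37.9% in chronic, 34.0% in acute, 35.5% in irradiated and 33.2% in normal, against 1.02%, 0.95%, 2.64%, 4.60%, 7.80% and 6.25% of T or NK-like cells. Unthinned, these shares were 31.7%, 61.1%, 73.5%, 48.7%, 56.3% and 53.0%, against 4.08%, 4.65%, 6.58%, 7.35%, 11.4% and 10.7%.

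Pretreatment stood apart from the other 5 libraries in macrophage C3, at 0.0879-fold of irradiated (0.0770 to 0.0999), or 11.4-fold lower. The gap was present in cells with resident markers, with 71.6 CPM in pretreatment against 525 CPM in irradiated, and in cells with neither set, with 23.8 CPM against 516 CPM. Neutrophil markers were also lowest in pretreatment. Their summed level in the macrophage or monocyte-like class, with 8 of 8 detected, was 81.7 CPM there, against 1337 to 3302 CPM in the other 5 libraries. Pretreatment held 20 neutrophil-like cells, against 2223 to 7731. The part of neutrophil RNA in the C3 difference was not tested. For C3, the ratio of cells with resident markers to those with neither set was 3.01 in pretreatment (2.13 to 4.21), 0.533 in continuous (0.466 to 0.607) and 0.732 in normal (0.555 to 0.947). In chronic (0.872 to 1.12), acute (0.745 to 1.17) and irradiated (0.854 to 1.2) its interval included 1.

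**Figure D3:**
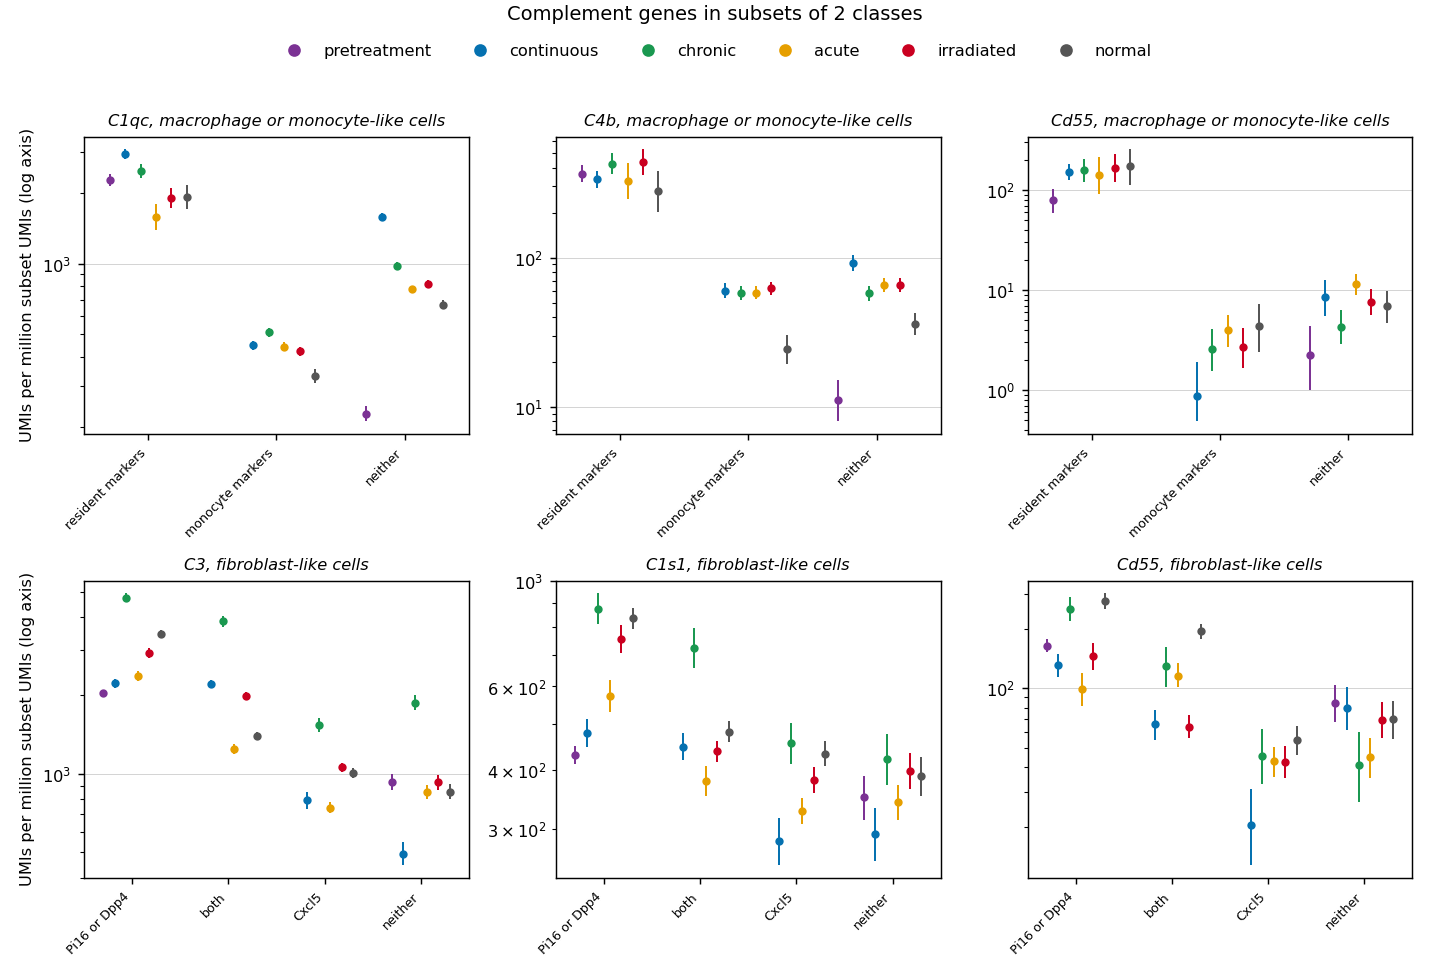
Levels of C1qc, C4b and Cd55 in macrophage or monocyte-like cells with resident markers, monocyte markers or neither (upper row), and of C3, C1s1 and Cd55 in fibroblast-like cells with Pi16 or Dpp4, with both those and Cxcl5, with Cxcl5 or with neither (lower row), in CPM on log axes that differ between panels; bars are 95% exact counting intervals, values below 0.5 are drawn at 0.5, and subsets with under 50 cells are not drawn. In all 6 libraries C4b and Cd55 are higher in macrophage or monocyte-like cells with resident markers than in cells with neither set, and Cd55 is higher in fibroblast-like cells with Pi16 or Dpp4 than in those with Cxcl5 in the 5 libraries that have both.

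Cfb encodes factor B, the protease of the alternative pathway. In fibroblast-like cells it stood at 209 CPM in pretreatment, 686 in continuous, 799 in chronic, 619 in acute, 839 in irradiated and 554 in normal. Pretreatment was below all other libraries, at 0.249-fold of irradiated (0.236 to 0.264), or 4.01-fold lower. Irradiated was the highest, at 1.51-fold of normal (1.46 to 1.57). By subset that ratio was 1.18 with Pi16 or Dpp4, 1.47 with Cxcl5, 1.91 with both and 1.47 with neither, and within fibroblast-like cells without a Cxcl5 UMI it was 1.1, no longer past 1.5-fold.

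Cfb in macrophage or monocyte-like cells stood at 58.7 CPM in pretreatment, 322 in continuous, 274 in chronic, 212 in acute, 265 in irradiated and 135 in normal. Pretreatment was again the lowest, at 0.221-fold of irradiated (0.197 to 0.248), continuous was the highest, and irradiated was 1.97-fold higher than normal (1.85 to 2.10). The irradiated over normal ratio was 1.97 in cells with monocyte markers (1.81 to 2.16), 1.78 in cells with neither set (1.61 to 1.97) and 1.26 in cells with resident markers (0.827 to 1.97). Vascular endothelial-like cells were next in the other 5 libraries and did not differ beyond counting error from macrophage or monocyte-like cells in pretreatment, with 76.2 CPM in pretreatment, 142 in continuous, 119 in chronic, 95.7 in acute, 108 in irradiated and 63.2 in normal. T or NK-like cells held at most 25.4 CPM, in acute, and no Cfb UMI in pretreatment.

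Serping1 encodes C1 inhibitor, the serpin that inactivates C1r and C1s. It stood in fibroblast-like cells at 2292 CPM in pretreatment, 1687 in continuous, 2359 in chronic, 1673 in acute, 1666 in irradiated and 1803 in normal. Chronic and pretreatment were highest, at 1.42-fold and 1.38-fold of irradiated, the other 4 libraries lay within a narrow range, and no ratio reached 1.5-fold. Pericyte or smooth muscle-like cells followed with 973 CPM in continuous and 943 CPM in acute. Vascular endothelial-like cells held 54.8 CPM in acute to 132 CPM in continuous, where the ratio to irradiated was 1.87. Macrophage or monocyte-like cells held 4.71 to 13.9 CPM, within or below the 7.6 to 16.7 CPM of T or NK-like cells. Serping1 was the most confined of the fibroblast genes by share of UMIs in all 6 libraries, with 98.1% of its kept UMIs in fibroblast-like cells in pretreatment, 84.5% in continuous, 80.8% in chronic, 83.5% in acute, 85.4% in irradiated and 89.6% in normal.

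Cd55 encodes decay-accelerating factor, a membrane protein that dissociates the enzymes that cleave C3. It had the fewest UMIs of the 9 genes. In fibroblast-like cells it stood at 151 CPM in pretreatment, 80.8 in continuous, 121 in chronic, 69.6 in acute, 69 in irradiated and 156 in normal. Normal and pretreatment were highest, acute and irradiated lowest, and chronic and continuous lay between them. The share of cells with a Cd55 UMI placed chronic lower. After thinning to 1000 UMIs it was 12.1% in pretreatment (9.41 to 15.3), with an interval of 9.68% to 12.4% in normal. It was 7.53% in chronic (5.06 to 10.7), near the 7.11% of continuous, with 6.40% in acute and 5.78% in irradiated. Irradiated was 0.441-fold of normal (0.403 to 0.482), or 2.27-fold lower, while pretreatment was 2.20-fold (1.99 to 2.42) and chronic 1.75-fold (1.54 to 1.98) of irradiated.

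Cd55 was higher in cells with Pi16 or Dpp4 than in cells with Cxcl5. Cells with Pi16 or Dpp4 and no Cxcl5 UMI held 164 CPM in pretreatment, 131 in continuous, 251 in chronic, 99.2 in acute, 145 in irradiated and 275 in normal. Cells with Cxcl5 alone held 20.5 CPM in continuous, 45.9 in chronic, 42.9 in acute, 42.7 in irradiated and 55.0 in normal, so the first subset was 2.31-fold (acute) to 6.38-fold (continuous) higher; the ratio in continuous was 2.67 after thinning to 1000 UMIs. The subsets had different weights in the libraries: cells with Pi16 or Dpp4 alone made up 71.4% of the class in pretreatment, 35.8% in continuous, 29.5% in chronic, 15.3% in acute, 15.7% in irradiated and 25.0% in normal. Within that subset the irradiated over normal ratio was 0.529 (0.448 to 0.623), still past 1.5-fold. The pretreatment over irradiated ratio within it was 1.13 (0.966 to 1.33), with an interval that includes 1, and the chronic over irradiated ratio was 1.73 (1.42 to 2.10).

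Over macrophage or monocyte-like cells as a whole, Cd55 was near background, with 13.4 CPM in pretreatment, 16.8 in continuous, 7.93 in chronic, 9.76 in acute, 8.45 in irradiated and 8.99 in normal, against 3.83 to 11.7 CPM in T or NK-like cells. Cells with resident markers stood far above this, at 79.0 CPM of Cd55 in pretreatment, 153 in continuous, 158 in chronic, 143 in acute, 167 in irradiated and 173 in normal. Cells with neither marker set held 2.23, 8.47, 4.32, 11.4, 7.65 and 6.91 CPM in the same order. The lowest value with resident markers lay above the highest with neither set. The ratio was between 12.5 in acute (7.83 to 19.5) and 36.5 in chronic (23.6 to 57.8). Its size is uncertain, since cells with neither set lay within or below the T or NK-like range. They held 9 Cd55 UMIs in pretreatment and 31 in chronic. The class level was 1.59-fold higher in pretreatment than in irradiated (1.18 to 2.12), but 0.472-fold in cells with resident markers (0.317 to 0.707) and 0.292-fold in cells with neither set (0.127 to 0.596). Cells with resident markers made up 16.5% of the class in pretreatment and 1.28% in irradiated.

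The first comparison set the library labelled irradiated against the library labelled normal, neither with a patch label. A member counts as past the threshold when its ratio was at least 1.5-fold in either direction with at least 20 UMIs over both libraries. In fibroblast-like cells 5 of 9 members were past it, beside 15.7% of all genes tested; C1qa, C1qb, C1qc and Cfb were higher and Cd55 lower in irradiated. The 3 C1q chains there lay at background, which itself was 193 CPM in irradiated and 104 CPM in normal T or NK-like cells, and C1qc came to 1.49-fold under a stricter cell filter. In macrophage or monocyte-like cells 3 of 9 were past it, beside 16.8% of all genes: C4b and Cfb were higher, and C1s1, at background levels of 9.54 CPM in irradiated and 16.0 CPM in normal, was lower (0.726-fold after thinning to 1000 UMIs). The median log2 ratio of the members was 0.54 in fibroblast-like cells, against -0.04 over all genes tested. That median includes the 3 C1q chains at background, and of the other 6 members 1 was higher and 1 lower. In macrophage or monocyte-like cells the median was 0.19, against -0.09 over all genes tested.

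Each library labelled with a patch schedule was then compared with the irradiated library, which all 4 comparisons share. Pretreatment and continuous held no hashtag counts while irradiated did, so for them the label and this difference cannot be told apart. Pretreatment had the largest share of genes past 1.5-fold of the 4 schedules in both classes. In fibroblast-like cells 6 of 9 members were past 1.5-fold, beside 44.4% of all genes: Cd55 was higher, and C4b, Cfb and the 3 C1q chains were lower. In macrophage or monocyte-like cells 6 of 9 were past it, beside 53.8% of all genes: Cd55 was higher, and C1qa (0.576-fold, 0.558 to 0.595), C1s1, C3, Cfb and Serping1 were lower. Those 2 shares are near the background, so the counts as such are no result about complement genes. Thinned to 1000 UMIs, 2 of the 6 in macrophage or monocyte-like cells stayed past the threshold, C3 and Cfb, and Serping1 turned to 1.19-fold. Median-ratio scaling shifted all ratios of this comparison in macrophage or monocyte-like cells by 0.16 on the log2 scale.

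Continuous had 3 of 9 members past 1.5-fold in fibroblast-like cells, beside 29.7% of all genes, and these were the 3 C1q chains, all lower, with a summed level of 70.4 CPM in continuous and 182 CPM in irradiated, where it was at background. Macrophage or monocyte-like cells had 4 of 9 past it, beside 34.3% of all genes. C1qb was 2.17-fold (2.12 to 2.21), C1qc 1.63-fold (1.58 to 1.67) and Cd55 1.99-fold (1.59 to 2.5) of irradiated, and C1s1 was lower. C1qa was 1.32-fold. The higher C1qb was seen in cells with resident markers at 2.31-fold (2.09 to 2.56), with monocyte markers at 1.72-fold (1.66 to 1.78) and with neither set at 2.57-fold (2.49 to 2.65), whereas C1qa was 1.07-fold, 1.02-fold and 1.51-fold in the same order. The Cd55 ratio was 1.11 in cells with neither set and 0.916 in cells with resident markers, whose share of the class was 6.78% in continuous and 1.28% in irradiated.

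Chronic had 3 of 9 members past 1.5-fold in fibroblast-like cells, beside 24.2% of all genes: C3 and Cd55 were higher and C1qa, at background, lower. Cd55 came to 1.49-fold as a mean over cells. Of the members in macrophage or monocyte-like cells, 3 of 9 were past it, beside 21.9% of all genes. C1qb was 1.5-fold of irradiated (1.47 to 1.54), a value on the threshold that was between 1.46 and 1.49 under a stricter cell filter, a stricter gate, median-ratio scaling and in cells with neither marker set. C1s1 and Serping1, both at background in this class, were lower, Serping1 at 0.731-fold after thinning to 1000 UMIs. Acute had 0 of 9 members past 1.5-fold in either class, beside 8.63% of all genes in fibroblast-like and 8.21% in macrophage or monocyte-like cells. Its nearest member was C3 in fibroblast-like cells, at 0.672-fold.

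**Figure D4:**
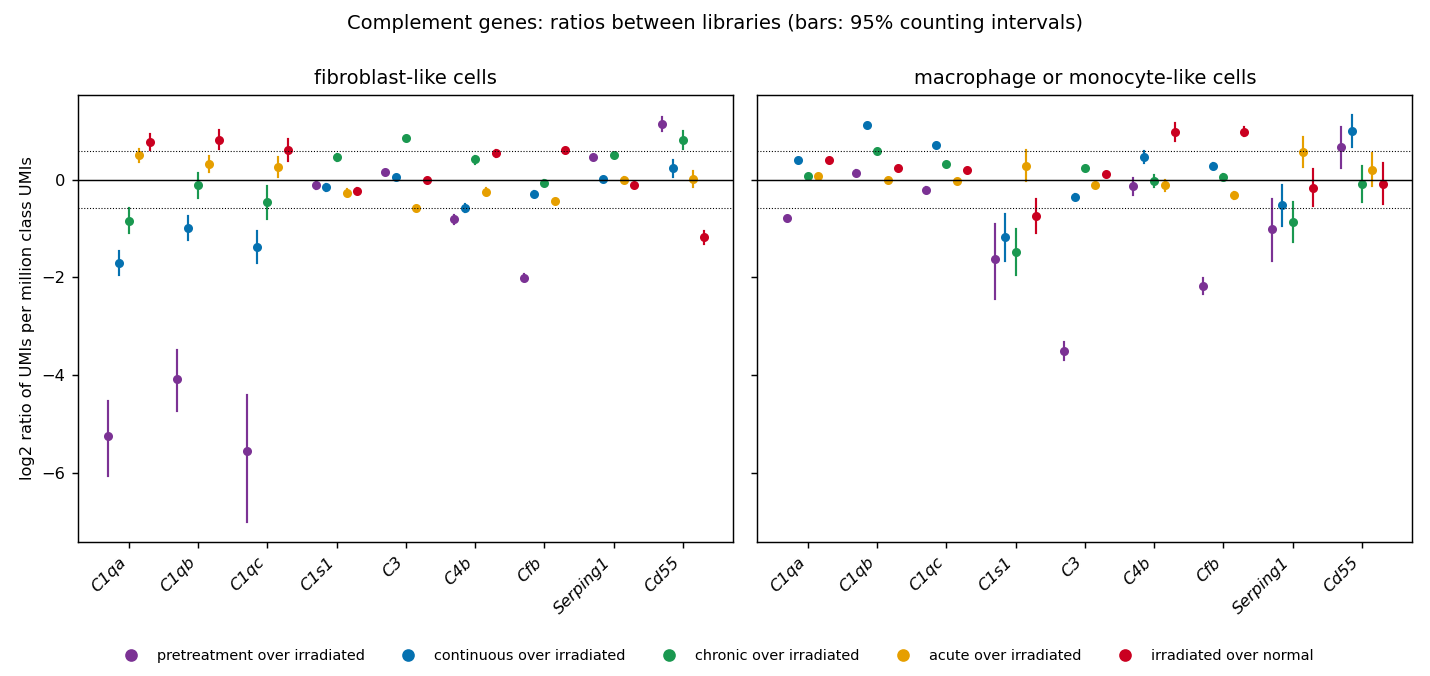
Log2 ratio of CPM for the 9 genes in fibroblast-like (left) and macrophage or monocyte-like cells (right), for each patch schedule over irradiated and for irradiated over normal; bars are 95% exact counting intervals and dotted lines mark 1.5-fold in either direction. In pretreatment, C3 in macrophage or monocyte-like cells is 11.4-fold lower and the 3 C1q chains in fibroblast-like cells, which lie at background, are lower still, and acute has no gene past either dotted line.

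Among the other 46 genes of a complement list, C1ra, Masp1 and C2 were highest in fibroblast-like cells of all 6 libraries and Cfp and C3ar1 in macrophage or monocyte-like cells, while others, such as Cd93 and C1qbp, were highest in neither class. C1ra, for the protease C1r, stood in fibroblast-like cells at 386 CPM in pretreatment, 259 in continuous, 348 in chronic, 225 in acute, 284 in irradiated and 306 in normal. C2, the second substrate of C1s, stood there at 71.3 CPM in pretreatment, 119 in continuous, 141 in chronic, 131 in acute, 151 in irradiated and 105 in normal. Masp1, a protease of the lectin pathway, was higher in 3 patch libraries: it stood in fibroblast-like cells at 172 CPM in pretreatment, 114 in continuous, 85.4 in chronic, 41.0 in acute, 37.0 in irradiated and 34.7 in normal. Its ratio to irradiated was 4.64 in pretreatment (4.13 to 5.22), 3.08 in continuous (2.71 to 3.50) and 2.31 in chronic (1.97 to 2.70). UMIs were found in 319 of 535, 268 of 612 and 116 of 376 fibroblast-like cells, and in 211 of 1647 in irradiated. These counts are unthinned and depend on depth, with medians of 11444, 9125, 7656 and 5092 UMIs in the same order.

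Properdin, which stabilises the alternative pathway enzyme and is encoded by Cfp, was held by macrophage or monocyte-like cells at 261 CPM in pretreatment, 402 in continuous, 400.4 in chronic, 392 in acute, 341 in irradiated and 336 in normal. The anaphylatoxin receptor gene C3ar1 stood in the same class at 155 CPM in pretreatment, 329 in continuous, 282 in chronic, 359 in acute, 334 in irradiated and 231 in normal. C5ar1, the C5a receptor, stood there at 74.7 CPM in pretreatment, 231 in continuous, 206 in chronic, 264 in acute, 267 in irradiated and 251 in normal. Pretreatment was lowest for all 3. Neutrophil-like cells held more C5ar1, with 372 to 423 CPM over the 5 libraries that had the class.

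Of the list's other genes with at least 20 UMIs, 5 were at least 1.5-fold higher and 2 lower of 28 in irradiated over normal fibroblast-like cells, beside 6.39% higher and 9.35% lower of all genes tested. Pretreatment over irradiated had 7 higher and 17 lower of 28, beside 22.2% and 22.3%, continuous had 4 and 13 of 26, beside 13.3% and 16.3%, chronic had 8 and 7 of 28, beside 12.4% and 11.8%, and acute had 4 and 0 of 28, beside 5.14% and 3.48%. For irradiated over normal in macrophage or monocyte-like cells, 1 was higher and 3 lower of 21, beside 7.58% and 9.22% of all genes. Pretreatment over irradiated had 7 higher and 8 lower of 21, beside 29.2% and 24.7%, continuous had 5 and 4 of 22, beside 15.6% and 18.7%, chronic had 3 and 5 of 23, beside 10.4% and 11.5%, and acute had 1 and 0 of 23, beside 4.69% and 3.52%. Among those lower in fibroblast-like cells of pretreatment and continuous were leukocyte genes such as Itgam, at 12.6 CPM in continuous against 69.1 CPM in irradiated.

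Near copies can share reads, and how the authors' counting treated them was not given. The near copies had few UMIs beside the members: C4a had 137 UMIs against 27841 of C4b, C1s2 had 131 against 25747 of C1s1, and Cd55b had 18 against 7102 of Cd55. C2, next to Cfb in the genome, had 6954 UMIs against 56042. The levels of C4b, C1s1 and Cd55 are uncertain to the extent that reads were divided between copies.

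Genes with the most similar pattern were sought for each member by Pearson correlation of log2(CPM + 10) over 40 class and library sums, among 7369 genes. These are descriptions over sums that share libraries, depth and class differences. The closest gene to each C1q chain was another chain, with 0.989 between C1qb and C1qc and 0.984 between C1qa and C1qc. Clec4a1 was second for C1qa (0.98) and for C1qc (0.985), ahead of C1qb for C1qa (0.976) and of C1qa for C1qc. C1s1 was most like Col6a1 (0.964), Nfatc4 and Ddr2, and Serping1 like Ndn (0.984), Fbn1 and Pcolce. C4b was most like Lrp1 (0.953), Cfb like Vcan (0.947) and Cd55 like Steap3 (0.928). The closest gene to C3 was Pdpn (0.901), the lowest best match of the 9 members.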

How the data were processed

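Per the submitters' processing notes, the authors used Cell Ranger and Seurat 5.0.1 with the pig build Sscrofa11.1. Per the file headers, Cell Ranger 6.0.0 wrote the deposited matrices, which hold raw counts (UMIs per gene and barcode). Antibody counts were left out, since no source ties tags to animals. The members and gene lists were chosen with earlier results of these data known.

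Barcodes were kept with at least 500 UMIs, 300 genes and at most 20% mitochondrial UMIs. A cell joined a class with at least 3 of its markers and a score at least 1.5 times the next class's. Cells below that margin were left out as mixed, which served as the doublet treatment. Levels are UMI sums over a class in 1 library, scaled to CPM, for classes of at least 50 cells. Ratios carry exact conditional 95% intervals. All genes with at least 20 UMIs over both libraries form the background. The interval code was tested on simulated data.

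All 9 members are named. Other complement genes could be named by ratio (at least 1.5-fold, 50 UMIs and an interval off 1, at most 3 per direction); C1ra, C2, Cfp, C3ar1 and C5ar1 were added after their values were seen. The marker subsets of both classes were also chosen after seeing the data. Tools were Python 3.11.15, numpy 2.4.6, scipy 1.17.1, pandas 2.3.3 and matplotlib 3.10.9.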

Additional observations from a re-analysis of the deposited data

Results flagged for a closer look

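Each of the following ratios was past 1.5-fold in opposite directions in different classes under the same comparison. With 1 library per label these differences between classes were not tested.

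For irradiated over normal, Cd55 was 1.79-fold in vascular endothelial-like cells and 0.441-fold in fibroblast-like cells. The first ratio is between low levels, 29.2 CPM in irradiated and 16.3 CPM in normal. T or NK-like cells held 8.37 and 11.7 CPM in these libraries. For continuous over irradiated, C1qb was 2.17-fold in macrophage or monocyte-like cells, but 0.326-fold in neutrophil-like, 0.298-fold in T or NK-like and 0.506-fold in fibroblast-like cells. C1qc was 1.63-fold in macrophage or monocyte-like cells, but 0.217-fold in neutrophil-like, 0.30-fold in T or NK-like, 0.387-fold in fibroblast-like and 0.453-fold in keratinocyte-like cells. The summed C1q level of T or NK-like cells was 45.6 CPM in continuous and 193 CPM in irradiated. Serping1 was 1.87-fold in vascular endothelial-like cells, 0.666-fold in neutrophil-like and 0.373-fold in keratinocyte-like cells, and Cd55 was 1.99-fold in macrophage or monocyte-like and 0.385-fold in neutrophil-like cells. The lower values of these last genes are near the T or NK-like level in continuous: Serping1 was at 12.8 CPM in neutrophil-like and 8.35 CPM in keratinocyte-like cells against 8.68 CPM, and Cd55 at 2.83 CPM in neutrophil-like cells against 4.65 CPM.

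For chronic over irradiated, C1qb was 1.5-fold in macrophage or monocyte-like cells, a value on the threshold. It was 0.577-fold in neutrophil-like, 0.507-fold in vascular endothelial-like and 0.543-fold in keratinocyte-like cells. In chronic the summed C1q level was 79.5 CPM in vascular endothelial-like and 47.8 CPM in keratinocyte-like cells, not above the 108 CPM of T or NK-like cells. Neutrophil-like cells stood above that, at 189.7 CPM. C3 was 1.79-fold in fibroblast-like cells, 0.439-fold in T or NK-like, 0.407-fold in vascular endothelial-like and 0.574-fold in keratinocyte-like cells. T or NK-like cells served as the background reference, with 28.4 CPM of C3 in chronic. Vascular endothelial-like (32.1 CPM) and keratinocyte-like cells (34.7 CPM) lay near that level, so the lower C3 ratios are between levels near the reference.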

How the results depend on the processing

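No paired analysis was possible because each label has 1 library. Of 33 member ratios past 1.5-fold in the 2 classes, 33 remained so with mixed cells kept and 33 without shared barcodes. Under a stricter gate 32 remained, under stricter cell filters 31 and under median-ratio scaling 31. As a mean over cells 30 remained, and after thinning to 1000 UMIs 27. Within a subset 28 remained, an alternative chosen after seeing the data. The subset was fibroblast-like cells without a Cxcl5 UMI, or macrophage or monocyte-like cells with neither marker set. All 33 also had at least 100 UMIs over both libraries, a minimum that leaves the ratios themselves unchanged. Thinning left 2 members past the threshold in macrophage or monocyte-like cells for pretreatment over irradiated, in place of 6, and 5 in fibroblast-like cells for chronic, in place of 3. The subset gave 5 in fibroblast-like cells for continuous and 5 for chronic, in place of 3 each. For acute in fibroblast-like cells, in place of 0, there was 1 under the stricter gate, under median-ratio scaling, as a mean over cells and in the subset, and 2 after thinning; in macrophage or monocyte-like cells there was 1 under the stricter cell filter. For pretreatment over irradiated in macrophage or monocyte-like cells, Serping1 reversed to 1.19 after thinning and Cd55 to 0.292 in the subset. The causes were not tested. Members at under 20 CPM in a class are limited by background and depth.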

Other observations

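Cfd, for the alternative pathway protease factor D, is known as adipsin from its abundance in fat cells. Adipocyte-like cells, 2 in pretreatment, 25 in continuous, 37 in chronic, 107 in acute, 63 in irradiated and 27 in normal, held 99%, 72.9%, 90.5%, 73.6%, 82.9% and 83.3% of the Cfd UMIs of kept cells in the same order. These are too few cells for a comparison between libraries. In fibroblast-like cells Cfd stood at 71.1 CPM in continuous, 54.3 in acute and 4.88 in irradiated, ratios of 14.6 (10.8 to 20.0) and 11 (8.28 to 15.3) that rest on few cells: 361 of the 453 UMIs in continuous and 107 of the 481 in acute lay in 1 cell each.

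The gene for the receptor-like protein Cd93, once proposed as a C1q receptor, was highest in vascular endothelial-like cells, with 651 CPM in pretreatment, 632 in continuous, 766 in chronic, 907 in acute, 1017 in irradiated and 1127 in normal. In macrophage or monocyte-like cells it stood at 22.8 CPM in pretreatment, 120.4 in continuous and 206 in irradiated. C6, a component of the terminal pore, stood in macrophage or monocyte-like cells at 15.6 CPM in pretreatment, 24.1 in continuous, 11.5 in chronic, 11.6 in acute, 9.61 in irradiated and 9.44 in normal, and Fcna, a ficolin that recognises sugars, at 19.6 CPM in pretreatment, 15.7 in continuous, 9.35 in chronic, 7.24 in acute, 8.97 in irradiated and 7.66 in normal. Both were highest in the 2 libraries where cells with resident markers made up 16.5% and 6.78% of the class, shares that depend on depth. Of the 55 genes of the complement list, 40 had at least 100 UMIs in the kept cells of all libraries together, and Mbl1 and C8b had none.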
